A study of Mus musculus with 6 samples.

Results

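Atrial cardiomyocyte markers were followed here in mouse heart RNA sequencing. The group holds 10 genes out of 49315 rows of the count table: Nppa, Myl4, Myl7, Sln, Mybphl, Bmp10, Dkk3, Stard10, Kcnj3 and Nr2f2. They were found by symbol, through the Ensembl identifiers of the table, as known markers of atrial muscle, and the rule uses no value measured in these libraries. The study compared hearts of C57BL/6 mice with wild-type Txnip (3 libraries) and hearts of conditional knock-in mice carrying the C247S mutant of Txnip (3 libraries). Txnip encodes a thioredoxin-binding arrestin-family protein that restrains glucose uptake. The labels name a MerCreMer recombinase, which is activated by tamoxifen, and 4-hydroxytamoxifen for all 6 samples, so both groups share this treatment. They name neither the promoter that drives the recombinase nor the age of the mice, and they do not say whether the wild-type mice carry it. The tissue is labelled only as heart, with no chamber given.

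Atrial and ventricular muscle cells build their contractile apparatus from partly different gene copies. In the sarcomere, atrial cells use the light chains MYL7 and MYL4 where ventricular cells use MYL2 and MYL3, and atrial cells regulate the calcium pump of the sarcoplasmic reticulum with sarcolipin in addition to phospholamban. Atrial cells also secrete hormones, store atrial natriuretic peptide in granules, and carry a potassium current opened by acetylcholine. In adult mice these differences make atrial transcripts a measure of how much atrium a heart sample holds, except for genes that ventricular muscle or other cells can also make.

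Promoter sequence is shown for 2 members that differed widely in level: Nppa, the most abundant member, and Myl7, which was at 0 counts in 3 of 6 libraries. Myl7 was not the lowest member. It had 12 counts over all libraries, against 6 for Sln and 4 for Bmp10. The stretches are the 250 bases before the start site in RefSeq on GRCm38.p6, written 5′ to 3′ on the strand of the gene, and capitals mark motif matches.
Nppa, chr4:148000472-148000721, plus strand: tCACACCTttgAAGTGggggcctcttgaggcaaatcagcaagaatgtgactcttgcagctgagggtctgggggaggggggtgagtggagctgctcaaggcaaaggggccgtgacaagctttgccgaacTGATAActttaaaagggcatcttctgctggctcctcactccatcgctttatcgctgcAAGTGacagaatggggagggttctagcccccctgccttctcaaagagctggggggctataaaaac
Myl7, chr11:5898783-5899032, minus strand: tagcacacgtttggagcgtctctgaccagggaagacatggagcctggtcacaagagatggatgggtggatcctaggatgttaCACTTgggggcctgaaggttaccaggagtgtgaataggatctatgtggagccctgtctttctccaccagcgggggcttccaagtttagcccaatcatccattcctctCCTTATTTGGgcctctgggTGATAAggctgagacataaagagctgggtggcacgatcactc

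Positions count back from the start site, with -1 as the base just before it. Nppa had the T-box letters AGGTGTG, read on the opposite strand, at -249 to -243, the NKX2-5 letters AAGTG at -239 to -235 and again at -65 to -61, and the GATA letters TGATAA at -122 to -117. Myl7 had the NKX2-5 letters on the opposite strand at -168 to -164, a CArG box, the motif of serum response factor, at -61 to -52, and TGATAA at -42 to -37. Both strands were searched, none of these matches overlapped another, and the GATA search took AGATAA or TGATAA. Of 32851 mouse promoter windows of the same length, 5.10% held the T-box letters, 40.7% the NKX2-5 letters, 16.6% a GATA match and 1.47% a CArG box, so the NKX2-5 and GATA matches are common ones. RefSeq entries were found for 8 of the 10 members. Among the other 6, Kcnj3 held a T-box match, Bmp10, Mybphl and Stard10 held GATA matches, Myl4 and Mybphl held NKX2-5 matches and Nr2f2 held no match. The MEF2 letters YTAWWWWTAR (Y for C or T, W for A or T, R for A or G) matched in none of the 8 (2.92% of all windows). These matches are descriptions of sequence and show no binding.

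Of the members, 4 had between 0 and 9 counts in each of the 6 hearts: Myl7, Sln, Bmp10 and Mybphl. In bulk libraries, fewer atrial cells and less atrial RNA per cell cannot be told apart. Myl7, the regulatory light chain of atrial myosin, was counted 0, 0 and 5 times in wild-type replicates 1 to 3 and 0, 2 and 5 times in knock-in replicates 1 to 3. Sln, which encodes the calcium pump inhibitor sarcolipin, was counted 0, 0 and 4 times against 0, 0 and 2 times. Bmp10, a secreted ligand of the bone morphogenetic protein family made by atrial muscle in adults, was counted 1, 0 and 0 times against 0, 0 and 3 times. In each of these 3 genes the groups overlapped and most libraries were at or below 3 counts, the limit that a count of 0 allows (0.192 to 0.212 CPM, the count scaled to a fixed library total, across libraries of 14146048 to 15620476 counts).

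Mybphl, a myosin-binding protein of atrial and conduction muscle, was counted 3, 9 and 2 times in wild-type and 3, 2 and 0 times in knock-in hearts, so its highest library was a wild-type one. The 4 genes together had 4, 9 and 11 counts in wild-type and 3, 4 and 10 counts in knock-in hearts. Over all libraries that made 41 counts, or 0.461 CPM (95% exact Poisson interval 0.331 to 0.626). CPM of these 4-gene sums, and of the 3-count limit above, used library totals as counted, while other CPM values used scaled totals. The wild-type sum was 0.558 CPM (0.358 to 0.830) and the knock-in sum 0.370 CPM (0.216 to 0.593), and these intervals, which cover counting error only, overlap. None of the 4 reached the minimum count for testing. With no filter, edgeR fitted log2 differences, knock-in over wild-type, of 0.41 for Myl7 (adjusted p = 0.923), -0.93 for Sln (0.850), -1.47 for Mybphl (0.715) and 1.26 for Bmp10 (0.809). These rest on few counts, and no genotype difference was detectable at this depth. Myl7, Sln and Bmp10 share no annotated exon and no 31-base word with another gene, and Mybphl shares 6.98% of its exon bases.

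The ventricular counterparts of the same proteins were among the abundant genes of the libraries. Myl2, the ventricular regulatory light chain, had 154053, 160545 and 143834 counts in wild-type and 232945, 239824 and 224058 counts in knock-in hearts. Myl7 therefore made up 0.00104% of the Myl7 and Myl2 counts over all libraries (95% exact Clopper-Pearson interval 0.000537 to 0.00181%). Such intervals cover counting error only. Shares here are of counts, with no allowance for exon length, and per kilobase of exon that of Myl7 was 0.00343%. Its count share was highest in wild-type replicate 3 at 0.00348% (0.00113 to 0.00811%), and the 3 libraries with no Myl7 count allowed up to 0.00158 to 0.00239%. Sln made up 0.00134% (0.000493 to 0.00292%) of the Sln and Pln counts, with Pln encoding phospholamban, or 0.00281% per kilobase of exon. Wild-type replicate 3 held 4 of the 6 Sln counts, and without it the Sln share was 0.000547% and the Myl7 share 0.000692%. Of the Pln exon bases, 64.7% lie in the opposite-strand transcript Gm47644. The summed share of Myl7 was 0.00109% in wild-type and 0.00100% in knock-in hearts, although Myl2 differed between them. The intervals of both shares overlap, but they leave out the spread between hearts.

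Myl4, the essential light chain of atrial and fetal muscle, was low but present in every library. Its counts were 37, 29 and 47 in wild-type and 50, 42 and 34 in knock-in hearts, and the groups overlapped. Against Myl3, the ventricular essential light chain, it made up 0.0372% of the pair's counts over all libraries (0.0326 to 0.0422%), from 0.0250% in wild-type replicate 2 to 0.0557% in wild-type replicate 3. Per kilobase of exon it made up 0.0164%. The interval on the count share covers counting error only, and wild-type replicates 2 and 3 lie outside it. The summed count shares were 0.0369% in wild-type and 0.0374% in knock-in hearts. Both ends of the range were wild-type hearts. No library here is of dissected atrium, so none of these shares can be turned into a proportion of atrial tissue.

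**Figure D1:**
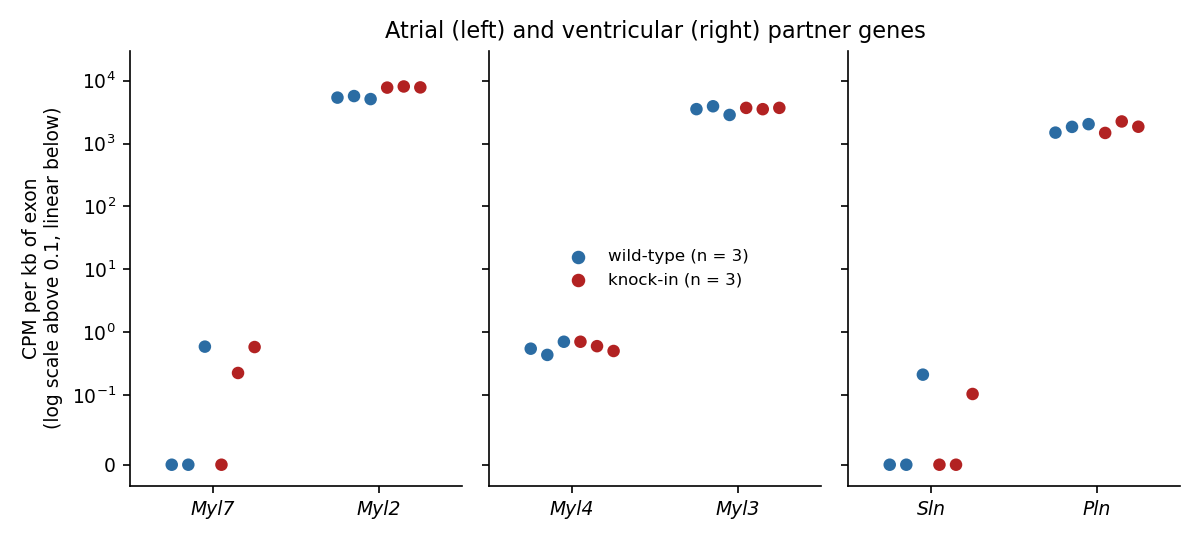
Level of each atrial gene (left in each panel) and its ventricular counterpart (right) in each of the 6 libraries, as CPM per kilobase of exon, on an axis that is logarithmic above 0.1 and linear below. Myl7, Myl4 and Sln stay below 0.703 in every library, while Myl2, Myl3 and Pln lie at or above 1476.

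The other cells and structures that lie at the atria were read from marker lists. The heart label itself was matched by 9 of 9 pan-cardiomyocyte markers, whose summed level was 50960 to 55697 CPM in wild-type and 52181 to 59722 in knock-in hearts. Of 10 pacemaker and conduction genes, Isl1 and Vsnl1, which mark the sinus node, were at 0 in all 6 libraries. Hcn4, the pacemaker channel, which the ventricular conduction system also makes, had 111, 100 and 124 counts in wild-type and 114, 130 and 104 in knock-in hearts. The 9 ganglion and nerve markers included 3 at 0 in all libraries, and 4 of 6 lung markers were at 0 in all libraries with none above 3 counts. Epicardial and mesothelial markers were low, with 2 of 8 tested and neither called, against 0.297% of all tested genes. Their summed level was 6.6 to 10.6 CPM in wild-type and 4.4 to 4.8 in knock-in hearts. These sums do not overlap between groups, and their difference was not tested. Markers of sinus node, ganglion and lung were thus partly at 0 in the same hearts.

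Levels between members can be compared per kilobase of annotated exon, with bases shared with other genes counted in full. On that scale, in CPM per kilobase, Nppa averaged 303 over the 6 libraries (119 to 662), Kcnj3 9.83 (6.34 to 14.2) and Stard10 7.49 (7.13 to 8.12). Nr2f2 averaged 0.603 (0.506 to 0.759), Myl4 0.579 (0.433 to 0.702) and Dkk3 0.565 (0.294 to 1.10). Myl7 averaged 0.231, Mybphl 0.169, Sln 0.0522 and Bmp10 0.0101, each with a lowest library at 0. In this order Nppa stood above every other member in every library. Kcnj3 and Stard10 overlapped over libraries, as did Nr2f2, Myl4 and Dkk3 among themselves and the last 4 among themselves. These last 2 sets overlapped as well, since Myl7 reached 0.587 and Mybphl 0.488 in their highest libraries. Myl2 ranged from 5105 to 8103 on the same scale, and Nppb, the brain natriuretic peptide gene that stressed ventricle makes, averaged 328.

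**Figure D2:**
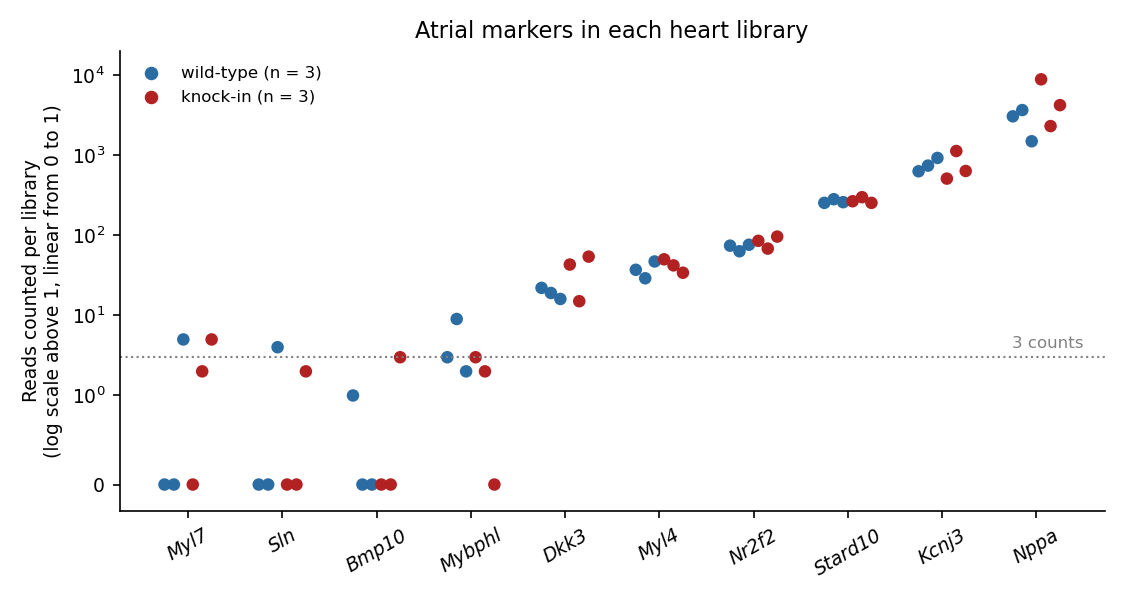
Counts of each of the 10 atrial markers in each library, as 1 point per library and coloured by genotype, on an axis that is logarithmic above 1 and linear from 0 to 1, with a dotted line at 3 counts. Myl7, Sln, Mybphl and Bmp10 lie around or below the line, and Nppa runs from 1485 to 8801 counts.

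The 6 members with enough counts were tested between genotypes with edgeR's quasi-likelihood test, with Benjamini-Hochberg adjustment over 12777 genes. None of the 6 passed an adjusted p of 0.05, against 0.297% of all tested genes, and DESeq2 called 0 as well, against 0.95% of 14098 genes. With so small a share called, no call is the likely outcome for a short list, here and in the lists below. At an unadjusted p of 0.05 the count was also 0 of 6, against 9.97% of all tested genes. In none of the 6 did the groups stand apart without overlap, against 16.1% of all tested genes. Log2 differences, knock-in over wild-type, were above 0 in 4 of 6 with a median of 0.14, and the median of all tested genes was -0.01. With 3 hearts a group the intervals are wide, and these misses do not show that the levels were alike. Txnip itself fell in the knock-in hearts, from 724, 791 and 741 to 438, 391 and 429 CPM (log2 difference -0.84 ± 0.09 SE, edgeR adjusted p = 0.00379).

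Nppa, which encodes the precursor of atrial natriuretic peptide and is also induced in strained ventricle, varied most. Its levels were 207, 252 and 103 CPM in wild-type replicates 1 to 3 and 573, 151 and 286 in knock-in replicates 1 to 3. Knock-in replicate 1 was the highest and wild-type replicate 3 the lowest, a 5.57-fold range, while knock-in replicate 2 lay below the first 2 wild-type hearts. The means were 187 ± 76.6 in wild-type and 337 ± 215 in knock-in hearts (SD, n = 3 each). The log2 difference was 0.85 ± 0.58 (SE; 95% interval -0.62 to 2.31; edgeR adjusted p = 0.730), within the spread between hearts, and it was 0.23 without knock-in replicate 1. Of the Nppa exon bases, 61.5% lie in the antisense gene Gm13054, which had 6, 8 and 1 counts against 14, 2 and 4. The library kit is not stated to mark strand, and no counting settings are named. How reads over these shared bases were assigned, to Nppa, to Gm13054 or to neither, is therefore not known. The same holds for the bases that Kcnj3 and Pln share with opposite-strand genes.

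Nppb lies beside Nppa in the genome and encodes the related brain natriuretic peptide. It had 267, 328 and 217 CPM in wild-type and 342, 150 and 234 in knock-in hearts (log2 difference -0.16 ± 0.30 SE, edgeR adjusted p = 0.926). The ratio of Nppa to Nppb counts was 0.776, 0.768 and 0.473 in wild-type and 1.67, 1.01 and 1.22 in knock-in hearts. These ratios do not overlap between groups, and they were set side by side after the values were seen and were not tested. In the natriuretic peptide pathway, with Nppa among its 15 genes, 12 were tested, 7 lay above and 5 below 0, and none passed. Corin, the protease that cuts the Nppa precursor, had a log2 difference of 0.19 ± 0.18 (edgeR adjusted p = 0.800), and Npr3, the clearance receptor, 0.51 ± 0.32 (0.681). Pcsk6, which activates corin, had -0.48 ± 0.11 (0.141).

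Dkk3, a secreted relative of the Dickkopf Wnt inhibitors, had few counts and a wide spread. Its counts were 22, 19 and 16 in wild-type and 43, 15 and 54 in knock-in hearts. The mean CPM values were 1.31 ± 0.196 and 2.49 ± 1.37 (SD, n = 3 each). Knock-in replicates 1 and 3 lay above all wild-type hearts and knock-in replicate 2 below all of them, so the groups overlapped. The log2 difference was 0.92 ± 0.42 (SE; 95% interval -0.02 to 1.86), with an edgeR adjusted p of 0.508. The value and its call rest on single hearts. Without knock-in replicate 3 the log2 difference was 0.53 (edgeR adjusted p = 0.955). Without knock-in replicate 2 the log2 difference was 1.31 with an edgeR adjusted p of 0.0380, in a fit that called 1.34% of all genes, and without both replicate 2 and wild-type replicate 3 it was 1.20 with an adjusted p of 0.0430, where 3.04% were called.

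Endothelial markers were read beside Dkk3. Vwf, an endothelial clotting protein picked out after its values were seen, had 111, 53.0 and 56.5 CPM in wild-type and 135, 42.2 and 154 in knock-in hearts. Over the whole list of 10 venous and lymphatic endothelial markers, 9 were tested and none passed. Emcn and Ephb4 had the smallest p, with log2 differences of 0.29 ± 0.15 SE (edgeR adjusted p = 0.572) and 0.15 ± 0.14 (0.798). Prox1, a lymphatic identity factor also picked after its values were seen, ran differently from Vwf, at 24.0, 30.4 and 59.1 against 18.8, 43.2 and 26.9 CPM. It was the only tested list member lowest in knock-in replicate 1. Vwf, Aplnr, Lyve1, Flt4 and Nrp2 were lowest in knock-in replicate 2, and Emcn, Ephb4 and Pdpn in wild-type replicate 2. The summed level of the list was 342, 242 and 303 CPM in wild-type and 373, 226 and 404 in knock-in hearts, and Ccl21a was at 0 in all libraries. Of 5 endocardial markers, all tested, none passed, and their sum was 195, 147 and 163 against 192, 167 and 218, with wild-type replicate 2 the lowest. Knock-in replicate 2 was the lowest and knock-in replicate 3 the highest for Dkk3 and for the venous and lymphatic sum, and the part of these cells in the Dkk3 values was not tested. The 10 fibroblast markers summed to 772 to 808 in wild-type and 675 to 868 in knock-in hearts. In the Dickkopf family with its Wnt co-receptors, 4 of 9 genes were tested, Dkk3 among them, and none passed.

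Kcnj3 encodes a subunit of the potassium channel that acetylcholine opens through muscarinic receptors. It had 42.7, 51.1 and 63.7 CPM in wild-type and 33.1, 73.9 and 43.1 in knock-in hearts, so a knock-in heart was both the highest and the lowest. The means were 52.5 ± 10.5 and 50.0 ± 21.3 (SD, n = 3 each), and the log2 difference was -0.07 ± 0.29 (SE; 95% interval -0.75 to 0.61; edgeR adjusted p = 0.976). It turned to 0.09, 0.17 and 0.03 without wild-type replicate 3, knock-in replicate 1 or knock-in replicate 3, and was -0.46 without knock-in replicate 2. Opposite-strand Gm26794 covers 31.1% of the Kcnj3 exon bases and had at most 4 counts in any library. Kcnj5, the partner subunit, had 53.2, 63.0 and 72.9 against 60.3, 109 and 71.2 CPM (log2 difference 0.34 ± 0.21, edgeR adjusted p = 0.662). Chrm2, the receptor, had 52.0, 70.6 and 78.0 against 48.1, 112 and 81.3 (0.26 ± 0.30, 0.851). For all 3 genes knock-in replicate 2 was the highest library. Of the 13 genes of this current, all tested, 9 lay above and 4 below 0 and none passed.

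Stard10, a lipid transfer protein of the START family, was the steadiest member. It had 17.2, 19.5 and 17.9 CPM in wild-type and 17.2, 19.6 and 17.2 in knock-in hearts, with a log2 difference of -0.01 ± 0.12 (SE; 95% interval -0.28 to 0.26; edgeR adjusted p = 0.992). Nr2f2, the nuclear receptor COUP-TFII that sets atrial identity and is also made by venous endothelium, had 5.04, 4.36 and 5.26 CPM against 5.53, 4.48 and 6.54. Its log2 difference was 0.17 ± 0.20 (95% interval -0.26 to 0.61; edgeR adjusted p = 0.851). Myl4 had 2.52, 2.01 and 3.25 against 3.25, 2.77 and 2.32, with a log2 difference of 0.10 ± 0.26 (-0.47 to 0.67; edgeR adjusted p = 0.953). In these 3 genes the groups overlapped. The differences of Stard10 and Myl4 changed sign when single hearts were left out.

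**Figure D3:**
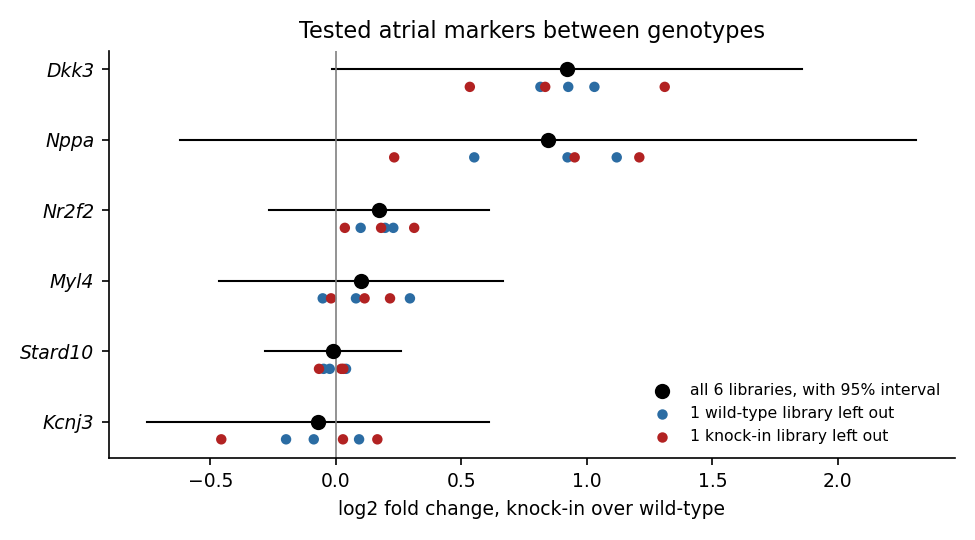
Log2 fold change, knock-in over wild-type, of the 6 tested markers: black points with 95% intervals are edgeR's fit to all 6 libraries, and coloured points below each are fits with 1 library left out. Every black interval spans 0, those of Nppa and Dkk3 are the widest, and Dkk3 runs from 0.53 to 1.31 as single libraries are left out.

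The 6 tested members did not move together across hearts. On log2 CPM centred on the 6 libraries, Nppa was at -0.12, 0.16 and -1.14 in wild-type and 1.34, -0.58 and 0.34 in knock-in hearts. Dkk3 was at -0.16, -0.33 and -0.56 against 0.68, -0.70 and 1.06. Kcnj3 was at -0.21, 0.05 and 0.36 against -0.58, 0.58 and -0.20. So knock-in replicate 1 had the most Nppa and the least Kcnj3, and knock-in replicate 2 the most Kcnj3 and the least Dkk3. The mean over the 6 members was -0.11, -0.11 and -0.17 in wild-type and 0.29, -0.12 and 0.21 in knock-in hearts. In knock-in replicate 1, where this mean was highest, 4 of 6 members lay above 0, while in wild-type replicate 1 none did.

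Summed over all 10 members, the level was 277, 331 and 195 CPM in wild-type and 635, 253 and 359 in knock-in hearts. Nppa alone made up 52.8 to 90.2% of this sum. Without Nppa the sums were 69.3, 78.9 and 91.9 against 62.1, 102 and 73.5, where the highest and the lowest heart were both knock-ins and Kcnj3 made up 53.2 to 72.4%. A summed atrial score in these hearts is therefore mostly a reading of Nppa and Kcnj3, and Myl7, Sln, Mybphl and Bmp10 add next to nothing to it.

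Gene length moved with the library order of some members. The median centred log2 level of genes with at least 5000 exon bases minus that of genes with under 1500 was -0.09, -0.08 and 0.29 in wild-type and -0.16, 0.09 and -0.06 in knock-in hearts. Nppa, whose exons span 865 bases, was lowest in wild-type replicate 3 and knock-in replicate 2, and these were the 2 libraries with long genes relatively high. Kcnj3, with 5215 exon bases, was highest in the same 2 libraries. The other member with at least 5000 exon bases did not follow this order. This was Nr2f2, with 8625 exon bases, at a centred log2 level of 0.03 in wild-type replicate 3 and -0.20 in knock-in replicate 2. Myl4, with 4637 exon bases and so below that limit, was at 0.28 in both wild-type replicate 3 and knock-in replicate 1. Wild-type replicate 3 also had the largest mitochondrial share, 28.0% against 22.9 to 24.3% in the others. The part of these properties in the Nppa and Kcnj3 values was not tested.

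**Figure D4:**
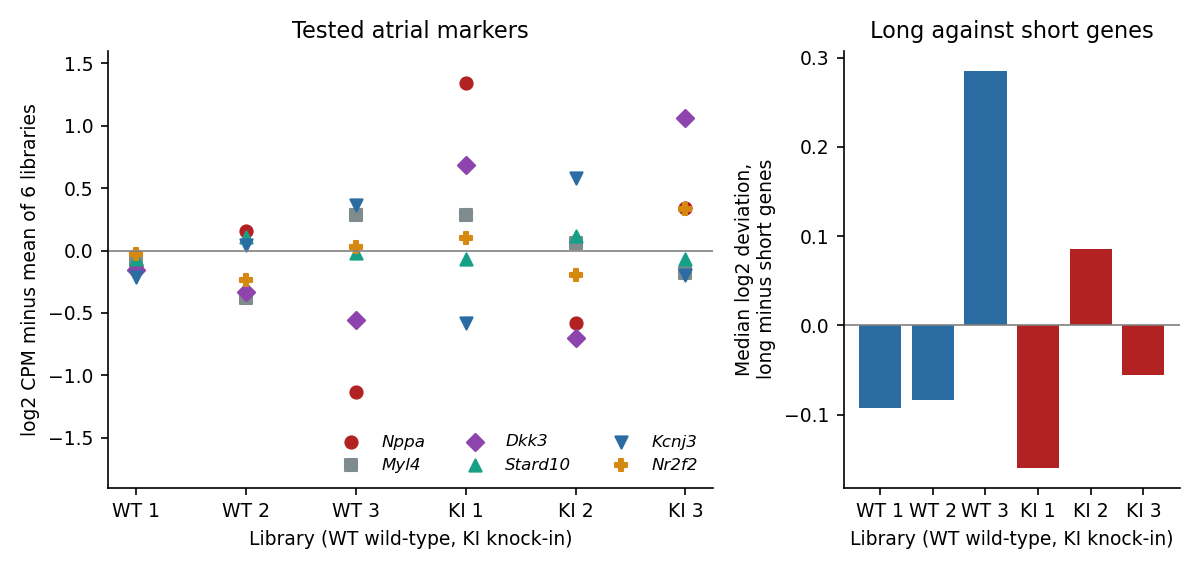
Left, log2 CPM of each tested marker minus its mean over the 6 libraries, by library; right, bars of the median log2 deviation of long genes minus that of short genes in the same libraries. Nppa spans -1.14 to 1.34 and Stard10 stays within -0.07 and 0.12, and the bars are highest in wild-type replicate 3 and knock-in replicate 2.

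The 15 other atrial-enriched genes showed no called member either, against 0.297% of all tested genes. Of 13 tested, 9 lay above and 4 below 0, with a median log2 difference of 0.26. Gja5, the connexin of atrial and conduction muscle, had 4.43, 5.68 and 6.51 CPM in wild-type and 8.98, 6.00 and 9.13 in knock-in hearts, which overlap (0.54 ± 0.22 SE, edgeR adjusted p = 0.432). Rgs6, which shortens muscarinic signalling, had 0.40 ± 0.19 (0.517). Among 16 transcription factors of the atrial programme and Nppa, all tested, 4 lay above and 12 below 0 and none passed. Hopx, a homeodomain-only cofactor, had the smallest p, with a log2 difference of 0.49 ± 0.12 SE and no overlap between groups (edgeR adjusted p = 0.177). Tbx5, an activator of Nppa, had 0.31 ± 0.15 (edgeR adjusted p = 0.544), Irx4, a ventricular identity factor, -0.33 ± 0.11 (0.333), and Nr2f1, the close relative of Nr2f2, -0.65 ± 0.38 (0.637).

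Of 11 ventricular-enriched genes, all tested, 1 passed (0.297% of all tested genes did), and it was the direct counterpart of Myl7. At an unadjusted p of 0.05, 4 were higher and 1 lower, against 9.97% of all tested genes. Myh7, the slow myosin heavy chain, had 42.9, 47.0 and 39.7 CPM in wild-type and 116, 56.3 and 138 in knock-in hearts, without overlap, but missed the threshold (log2 difference 1.26 ± 0.30 SE, edgeR adjusted p = 0.216). Myl2 rose from 10524.8 ± 583 to 15409 ± 343 CPM (SD, n = 3 each), with no overlap between groups and a log2 difference of 0.55 ± 0.09 (SE; edgeR adjusted p = 0.0399). Pln, the counterpart of Sln, had 0.05 ± 0.16 (0.963), and Atp2a2, the pump both regulate, 0.02. In the BMP10 pathway, 14 of 16 genes were tested and none passed. Acvrl1, an endothelial receptor of BMP10, had 0.06 ± 0.13, and the target genes Id1 and Smad6 had -0.53 ± 0.24 (edgeR adjusted p = 0.521) and -0.37 ± 0.22 (0.641). In the myosin-binding protein family of Mybphl, 2 of 5 genes were tested and none passed, with Mybpc3 at -0.16 ± 0.10 (edgeR adjusted p = 0.655). Mybpc2, the fast skeletal member, had 18.2, 21.2 and 21.2 CPM in wild-type and 14.4, 7.05 and 9.95 in knock-in hearts, without overlap (-0.95 ± 0.22, edgeR adjusted p = 0.146). Cntn2, a conduction system adhesion protein, had 2.79, 2.42 and 2.84 CPM in wild-type and 5.66, 3.82 and 10.1 in knock-in hearts, without overlap, but missed the threshold (1.28 ± 0.33, edgeR adjusted p = 0.190).

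The remaining lists were read the same way, beside the 0.297% of all tested genes that passed. Of 12 myosin light chains, 11 were tested, 8 lay above and 3 below 0, and only Myl2 passed. Of 7 calcium pumps and their small regulators, 5 were tested, all 5 lay above 0 with a median log2 difference of 0.19, and none passed. In the START family of Stard10, 11 of 12 genes were tested, 4 lay above and 7 below 0, and none passed. Acot11, an acyl-CoA thioesterase with this domain, had the smallest p (-0.51 ± 0.14 SE, edgeR adjusted p = 0.233). Among 7 large vessel smooth muscle markers, all tested, 3 lay above and 4 below 0, with a median log2 difference of -0.04, and 1 passed: Acta2, the smooth muscle actin, fell (log2 difference -1.24 ± 0.12 SE, edgeR adjusted p = 0.00268). Of 6 adipocyte markers 1 was tested and did not pass.

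The genes most like the mean of the 6 members over the 6 libraries were sought among 5988 other tested genes with at least that spread. They were Atp9a, with a root mean square difference of 0.021 on the log2 scale, Papss1 (0.041), Hmgb2 (0.056), Lipe (0.057) and Plat (0.057). None of these is an atrial marker. With so many candidates and 6 points, this likeness is a description only.

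The members lie on 7 chromosomes in GRCm38 with GENCODE M21 annotation. Nppa (ENSMUSG00000041616) is at chr4:148000722-148002079, Myl4 (ENSMUSG00000061086) at chr11:104550663-104595753 and Myl7 (ENSMUSG00000020469) at chr11:5896637-5898782. Sln (ENSMUSG00000042045) is at chr9:53850164-53854560, Mybphl (ENSMUSG00000068745) at chr3:108364911-108380057 and Bmp10 (ENSMUSG00000030046) at chr6:87428994-87437677. Dkk3 (ENSMUSG00000030772) is at chr7:112116017-112159057, Stard10 (ENSMUSG00000030688) at chr7:101317086-101346626 and Nr2f2 (ENSMUSG00000030551) at chr7:70351944-70366735. Kcnj3 (ENSMUSG00000026824) is at chr2:55435970-55598145.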

How the data were processed

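Raw read counts per gene were deposited by the authors as 1 table of whole numbers for 6 libraries. Per the submitters' processing notes, GRCm38.p6, STAR and DESeq2 were used, with featureCounts from Subread 1.5.2, and no settings are named. Gene names came from GENCODE M21, which named 49056 of 49315 identifiers. Counts were filtered (filterByExpr), scaled (TMM) and tested with edgeR 4.0.16 in R 4.3.3 (glmQLFit, robust; two-sided; all 6 libraries; no covariates), and a gene was called at an adjusted p under 0.05. DESeq2 1.42.0, limma 3.58.1 (voom), other scalings and filters and the omission of each library were alternatives. The test was also tested on simulated data. Replicate numbers follow accession order and pair nothing, and labels do not say that each library is a separate animal, so p-values measure the spread between these samples. Every replicate pair differed beyond sampling of reads (chi-square divided by its degrees of freedom, 7.16 to 27.0). The members and all 22 lists were proposed with earlier results of these data known. Apart from members, the rule let the text name list genes that were called or otherwise had the 2 smallest p, listed partners of members (Tbx5 and Nr2f1 among them) and the 5 most alike genes, without requiring each; others named were chosen after their values were seen.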

Additional observations from a re-analysis of the deposited data

How the results depend on the processing

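Of 38 called genes (14 higher, 24 lower in knock-in hearts), the count became 317 (144 and 173) without a filter, 134 (64 and 70) by DESeq2, 18 (7 and 11) by limma-voom, 75 (28 and 47) at an adjusted p under 0.1 and 392 (171 and 221) with wild-type replicate 3 left out together with knock-in replicate 2, an alternative chosen after seeing the data. Leaving out single libraries gave 5 to 174 (2 to 88 higher, 3 to 86 lower), lowest without wild-type replicate 2 and highest without knock-in replicate 2. Called atrial markers numbered 0, and 0 to 1 when single libraries were left out, with Dkk3 called without knock-in replicate 2, and 1, again Dkk3, without both named libraries. Leaving out single libraries gave log2 differences of 0.53 to 1.31 for Dkk3, 0.23 to 1.21 for Nppa, 0.04 to 0.31 for Nr2f2, -0.053 to 0.295 for Myl4, -0.067 to 0.040 for Stard10 (-0.083 with both named libraries left out) and -0.46 to 0.17 for Kcnj3. The summed members' log2 ratio was 0.64, 0.196 without knock-in replicate 1, 0.894 without knock-in replicate 2, and -0.0148 without Nppa, the most abundant member. Pair shares ranged over 0.000692 to 0.00130% for Myl7, 0.0344 to 0.0399% for Myl4 and 0.000547 to 0.00170% for Sln. The cause of these changes was not tested. No paired analysis was possible because the labels give no replicate numbers. Depth limits Myl7, Sln, Mybphl and Bmp10, which had 0 to 9 counts a library.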

Other observations

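The genes most like Nppa alone, sought after its values were seen, were Adh1 (root mean square difference 0.36 on the log2 scale over 6 libraries), Mt2 (0.38), Tent5b (0.46), Gadd45g (0.47) and Fam107a (0.52), out of 77 genes with at least its spread. The ratio of Kcnj3 to Kcnj5 counts was 0.804, 0.812 and 0.873 in wild-type and 0.548, 0.681 and 0.605 in knock-in hearts. These ratios do not overlap, although neither gene passed a test by itself. They were formed after the values were seen and were not tested.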
